A study of Mus musculus with 22 samples.

Results

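The distal megabase of a mouse autosome is the last 1 Mb of sequenced bases before the telomere-proximal gap at the end of the assembly, and the peaks that lie there on chromosomes 1 to 19 of GRCm38 (mm10) are described here. Mouse chromosomes have their centromere at the other end, so each has 1 such stretch. A peak was a member when it started within the 1 Mb before the last base that is not N, whatever its strength, and 12916 of the 1507962 autosomal peaks in the 16 deposited lists (1581404 with the other chromosomes) were members. They comprised 6613 G4, 2953 ATAC, 823 ATRX and 2527 H3K9me3 peaks. The 19 stretches hold 18645206 sequenced bases, which is 0.778% of autosomal sequence.

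The cells were mouse embryonic stem cells of the CAST/Ei x 129/Sv/Jae background grown in serum with LIF. One group was transfected for 12 h with LNA oligonucleotides against TERRA (TERRA KD) and the other with scramble LNA oligonucleotides (scramble KD), and no untransfected group was analysed. For each group there were 2 replicates of ChIP-seq with an antibody to ATRX, to H3K9me3 or to DNA G-quadruplexes (BG4, called G4 here), and 2 of ATAC-seq, which marks accessible DNA. Feeder cells had been removed before transfection. With 2 lists against 2, the exact permutation test cannot give a p below 0.333, so no difference between the knockdowns could reach 0.05 for any value below.

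TERRA is the RNA transcribed from chromosome ends into the telomeric repeats, and it carries runs of UUAGGG. The G-rich strand of those repeats can fold into G-quadruplexes, 4-stranded structures held by stacked guanine tetrads. ATRX is a chromatin remodeler that, with DAXX, deposits histone H3.3 at telomeres and other repeats, and H3K9me3 is the histone mark of constitutive heterochromatin, which is known at subtelomeres and at silenced retroelements. The distal megabase therefore joins 3 kinds of DNA: the telomeric repeat itself, repeat-rich subtelomeric sequence and ordinary gene-bearing euchromatin.

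In the assembly, 18 of the 19 ends finish in a tract of the telomeric hexamer, from 37 bp on chromosome 9 to 695 bp on chromosome 14. Short interruptions by other bases were allowed in a tract and count in its length. Only chromosome 4 has no tract. The tract is not the telomere, which lies in the gap, but is its innermost sequenced part. The last 120 bases of chromosome 4 (chr4:156357997-156358116, plus strand of GRCm38, read 5′ to 3′ toward the telomere) are printed because this is the end without a tract, and they hold 0 copies of the hexamer.
Chromosome 4: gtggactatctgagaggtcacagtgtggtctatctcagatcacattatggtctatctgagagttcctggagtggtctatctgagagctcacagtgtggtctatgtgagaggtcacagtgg

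An ATAC peak lay on the terminal tract of 16 ends in all 4 ATAC lists. It was absent from every list at the chromosome 4 end, which has no tract, and at the chromosome 9 end, and at the chromosome 15 end, whose tract is 70 bp long, it was listed in scramble KD replicate 2 alone. In all, 62 of these peaks (15 and 15 in scramble KD, 16 and 16 in TERRA KD) ran past the last sequenced base into the gap, by up to 197 bp, and were counted by their sequenced part. The chromosome 7 end, with 88 hexamer copies in the last 1 kb, had a summit pileup, the number of overlapping tags at the peak's top, of 40.8 and 34.1 per 1000000 tags in scramble KD against 42.9 and 37.5 in TERRA KD. Its peak ranked within the top 0.00515% of every list. At the other extreme, the chromosome 6 peak had 1.51 and 1.6 per 1000000 tags in scramble KD against 1.81 and 2.54 in TERRA KD over a 94 bp tract. Across the 19 ends the pileup followed the number of hexamer copies (Pearson's r 0.94, Spearman's rho 0.95, n = 19 ends that share the same libraries), which is a description of sites and not of independent samples. Reads made of the hexamer alone match every tract, so a pileup at one end may hold tags from other ends or from the telomeres themselves, which was not tested.

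**Figure D1:**
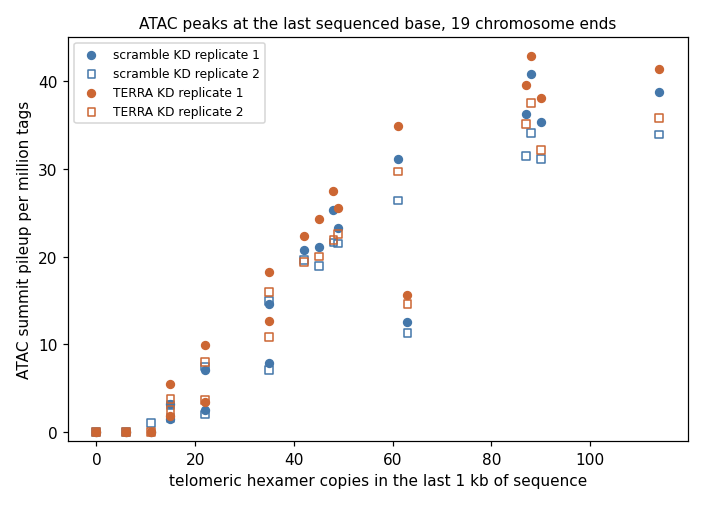
Summit pileup of the ATAC peak at the last sequenced base, in tags per 1000000 tags of the library (y axis), against the number of telomeric hexamer copies in the last 1 kb of sequence (x axis), 1 point for each of 19 chromosome ends and each of 4 libraries, with ends lacking a peak at 0. The points climb from 0 to the 40.8 and 42.9 of replicate 1 at chromosome 7, and the TERRA KD points lie near the scramble KD points of the same end.

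The tract peaks were somewhat higher in the TERRA KD mean, but the libraries of the 2 groups overlapped. Per library, the median over the 16 ends was 20.9 and 19.2 per 1000000 tags in scramble KD against 23.4 and 19.7 in TERRA KD. The ends share these libraries, so counts of ends below describe sites and not replicates. Scaled to the tags of each library, both TERRA KD values were above both scramble KD values at 7 of the 16 ends (chromosomes 5, 6, 8, 10, 11, 13 and 17), against 18.2% of the 53084 autosomal ATAC sites found in all 4 lists. Without scaling it was 15 of 16 ends, against 14.3% of those sites, and the libraries differed in depth. On the log2 scale, the TERRA KD level over the scramble KD level, per 1000000 tags, ran from 0.05 (chromosome 1) to 0.67 (chromosome 17) with a median of 0.16, while the median was 0.02 over the 53084 sites and -0.01 over the other 469 distal sites in all 4 lists. Within replicate 1 it was positive at 16 ends (median 0.19) and within replicate 2 at 15 (median 0.12). The larger ratios belonged to the shorter tracts: at chromosome 11 (178 bp) the values were 7.86 and 7.07 in scramble KD against 12.7 and 10.8 in TERRA KD, whereas at chromosome 14 (695 bp) they were 38.8 and 33.9 against 41.4 and 35.8. At the longest tracts the 2 groups overlapped. No ChIP peak touched a tract in any of the 12 ChIP lists: the nearest H3K9me3 peak ended 219 bp from the last base, the nearest ATRX peak 293 bp and the nearest G4 peak 1828 bp. G4 motifs (4 runs of 3 or more G with loops of 1 to 7 bases) stood at 1550 per Mb in the last 10 kb, which holds the tracts, against 238 per Mb over the autosomes. The ChIP lists were called against an input and the ATAC lists were not, and the part of this difference was not tested.

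From the tract inward, H3K9me3 and ATRX peaks thinned with distance. In the last 10 kb H3K9me3 peaks stood at 6.78 and 7.58 times the autosomal mean density in scramble KD and at 7.15 and 7.36 times in TERRA KD. Between 100 and 250 kb the ratio was 2.82 and 2.92 against 2.86 and 3.02, and between 500 and 1000 kb it had reached 0.827 and 0.876 against 0.983 and 0.952. All 4 lists showed the slope, and in the last 10 kb 12, 14, 11 and 15 of the 19 ends had a peak. Between 10 and 50 kb the TERRA KD replicate 1 value, 3.99, lay below the other 3 lists at 6.39, 6.72 and 7.54. These ratios count peaks. The median peak length in that bin was 2886 and 501 bases in scramble KD against 5107 and 514.5 in TERRA KD. Covered bases in the last 50 kb were 7.95 and 7.37 times the autosomal share in scramble KD. In TERRA KD they were 8.84 and 7.9 times, higher within each replicate number, though the groups overlapped. For ATRX the last 10 kb gave 7.32 and 4.94 times the mean in scramble KD and 5.81 in TERRA KD replicate 1, but 1.21 in TERRA KD replicate 2, whose highest bin was 1.79 (50 to 100 kb). These ATRX densities rest on 4, 5, 18 and 2 peaks, so single bins near the end are coarse.

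G4 and accessible sites did not share that slope. G4 peaks were sparse in the last 10 kb, at 0.663 and 0.537 times the mean in scramble KD against 0.682 and 0.64 in TERRA KD. These values rest on 7, 16, 9 and 11 peaks. This was the lowest bin of every list but TERRA KD replicate 1, whose lowest was 0.663 between 10 and 50 kb. Between 500 and 1000 kb all 4 lists lay from 0.911 to 0.977. ATAC peaks in the last 10 kb stood at 3.02 and 2.59 against 2.44 and 2.41, but without the peaks running past the last base this became 0.504 and 0.545 against 0 and 0.381. Farther in, ATAC density stayed between 0.793 and 1.26 times the mean in every list. Sequence changed along the same axis: repeat-masked bases made up 43.0% of the last 10 kb and 33.3% of the stretch beyond 500 kb, and 26.4% against 7.37% of 31-base words also occurred in the distal megabase of another autosome. The part of repeat content and of reads that match several ends in these densities was not tested.

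**Figure D2:**
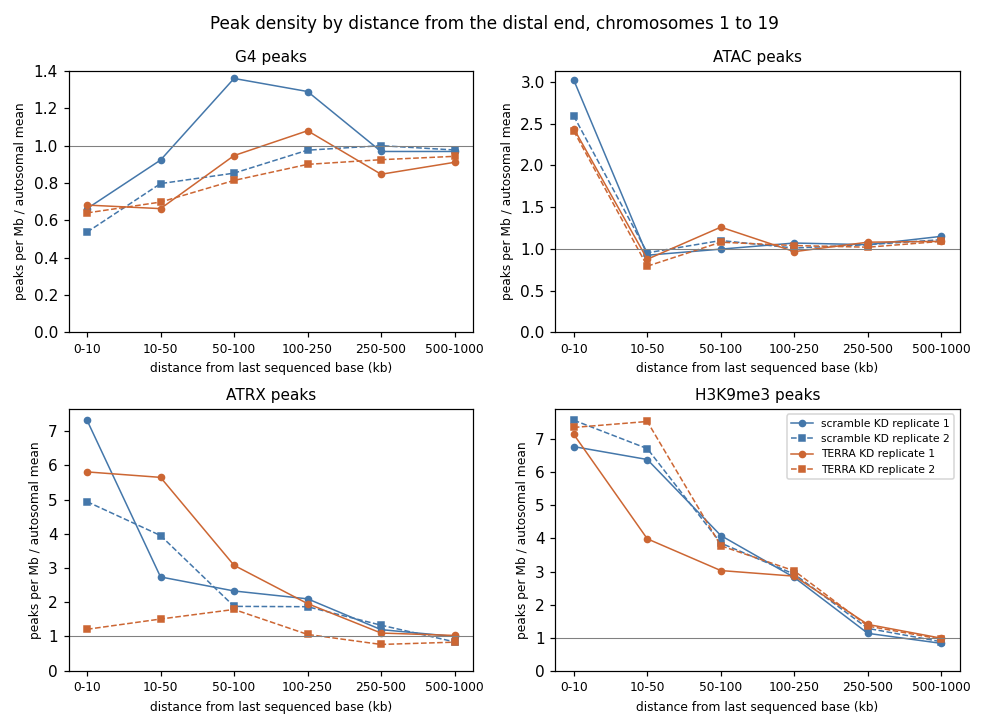
Peaks per sequenced Mb divided by the autosomal mean of the same list (y axis, 1 is the mean) in 6 bins of distance from the last sequenced base (x axis, kb), for the 4 assays, with 1 line per list. H3K9me3 starts near 7 in all 4 lists and reaches 0.827 to 0.983 beyond 500 kb. ATRX starts at 7.32 and 4.94 in scramble KD and at 5.81 and 1.21 in TERRA KD, and reaches 0.834 to 1.03 beyond 500 kb. G4 starts at 0.537 to 0.682.

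Over the whole distal megabase, H3K9me3 was denser than in the rest of the autosomes in every list. There were 310 and 944 H3K9me3 members in scramble KD against 295 and 978 in TERRA KD, 1.66, 1.74, 1.66 and 1.84 times the density of the rest of the autosomes (mean log2 ratio 0.79, exact sign-flip test over the 4 lists, p = 0.125, the smallest it can give). They covered 6.31% and 3.16% of distal bases in scramble KD against 8.49% and 3.63% in TERRA KD, where 3.27%, 1.7%, 4.05% and 1.88% of all autosomal bases were covered. ATRX members numbered 76 and 133 in scramble KD against 463 and 151 in TERRA KD, at 1.42, 1.34, 1.53 and 0.929 times the rest (mean log2 0.36, exact sign-flip p = 0.25). The TERRA KD replicate 2 list was the one below the rest, and with only peaks of −log10 p of at least 5 the mean log2 ratio of ATRX was 1.59. That value rests on 3 and 5 members in scramble KD against 54 and 9 in TERRA KD. The chromosome 9 end alone held 3 and 3 of these against 7 and 3. ATAC lists held 651 and 784 members against 696 and 822, at 1.11, 1.09, 1.08 and 1.06 times the rest (mean log2 0.12, exact sign-flip p = 0.125), and G4 lists 1070 and 2823 against 1180 and 1540, at 1.03, 0.965, 0.91 and 0.912 times (mean log2 -0.07, exact sign-flip p = 0.25). In 2 of the 4 comparisons all lists thus lay on one side.

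The share of an autosomal list that fell in the distal megabase was compared between knockdowns, since the lists differ in length. For G4 it was 0.803% and 0.751% in scramble KD against 0.708% and 0.71% in TERRA KD, so both TERRA KD lists were below both scramble KD lists (log2 difference of means -0.13, n = 2 and 2, exact permutation p = 0.333). The sign turned when peaks under a −log10 p of 5 were dropped, with a log2 difference of 0.04. ATAC shares were 0.867% and 0.846% against 0.84% and 0.827% (log2 difference -0.04, exact permutation p = 0.333). H3K9me3 shares were 1.28% and 1.35% against 1.29% and 1.43%, and the groups overlapped (log2 difference 0.04, exact permutation p = 0.667). ATRX shares were 1.1% and 1.04% in scramble KD against 1.18% and 0.723% in TERRA KD, so the TERRA KD lists lay on both sides of the scramble KD pair (log2 difference -0.21, exact permutation p = 1.0). Without TERRA KD replicate 2 the ATRX difference was 0.15, and with only peaks of −log10 p of at least 5 it was -0.52. The latter rests on 3 and 5 members in scramble KD against 54 and 9 in TERRA KD. Numbers of ATRX members were higher in both TERRA KD lists (2.63 times in the mean of logs, exact permutation p = 0.333), as were the whole lists, which held 6898 and 12784 autosomal ATRX peaks in scramble KD against 39087 and 20884 in TERRA KD.

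Covered bases, measured in the stretch relative to all autosomes, gave log2 differences of -0.15 for G4 (exact permutation p = 0.333), -0.05 for ATAC (p = 0.333), -0.32 for ATRX (p = 0.667) and 0.09 for H3K9me3 (p = 0.667) in the same exact test. Only the G4 and ATAC groups did not overlap. With only peaks of −log10 p of at least 5, the G4 value was 0.03 and the ATRX value -1.73. This ATRX value rests on 3 and 5 members in scramble KD, of which the chromosome 9 end held 3 and 3. Depth differed within each assay, from 2961038 to 24588605 tags for G4, 4104486 to 15506154 for ATRX, 5435286 to 13898785 for H3K9me3 and 5976014 to 7883648 for ATAC. The H3K9me3 peaks also differed in form between replicates, with a median member length of 2748 and 502 bases in scramble KD against 3711 and 522 in TERRA KD, so the numbers of H3K9me3 peaks are set side by side within a replicate number. The part of depth and peak length in these differences was not tested.

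Peak counts differed between the 19 ends, and how closely they recurred between replicates depended on the assay. In the ATAC lists the counts per end correlated at r = 0.98 between scramble KD replicates and 0.96 between TERRA KD replicates over the 19 ends, against 0.24 and 0.6 for ATRX, 0.54 and 0.89 for G4 and 0.68 and 0.44 for H3K9me3. ATAC counts went with the number of genes (r 0.69 to 0.79 across lists) and GC content (0.79 to 0.83), and G4 counts with GC content in 3 lists (0.84 to 0.9) but less in scramble KD replicate 1 (0.4), where 58.1% of the bases under members were repeat-masked against 31.1% to 40% in the other G4 lists. H3K9me3 counts went with repeat-masked bases (0.31 to 0.7), and ATRX counts had no such common sign with GC content (-0.35 to 0.58). These coefficients are descriptions over ends that share libraries.

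**Figure D3:**
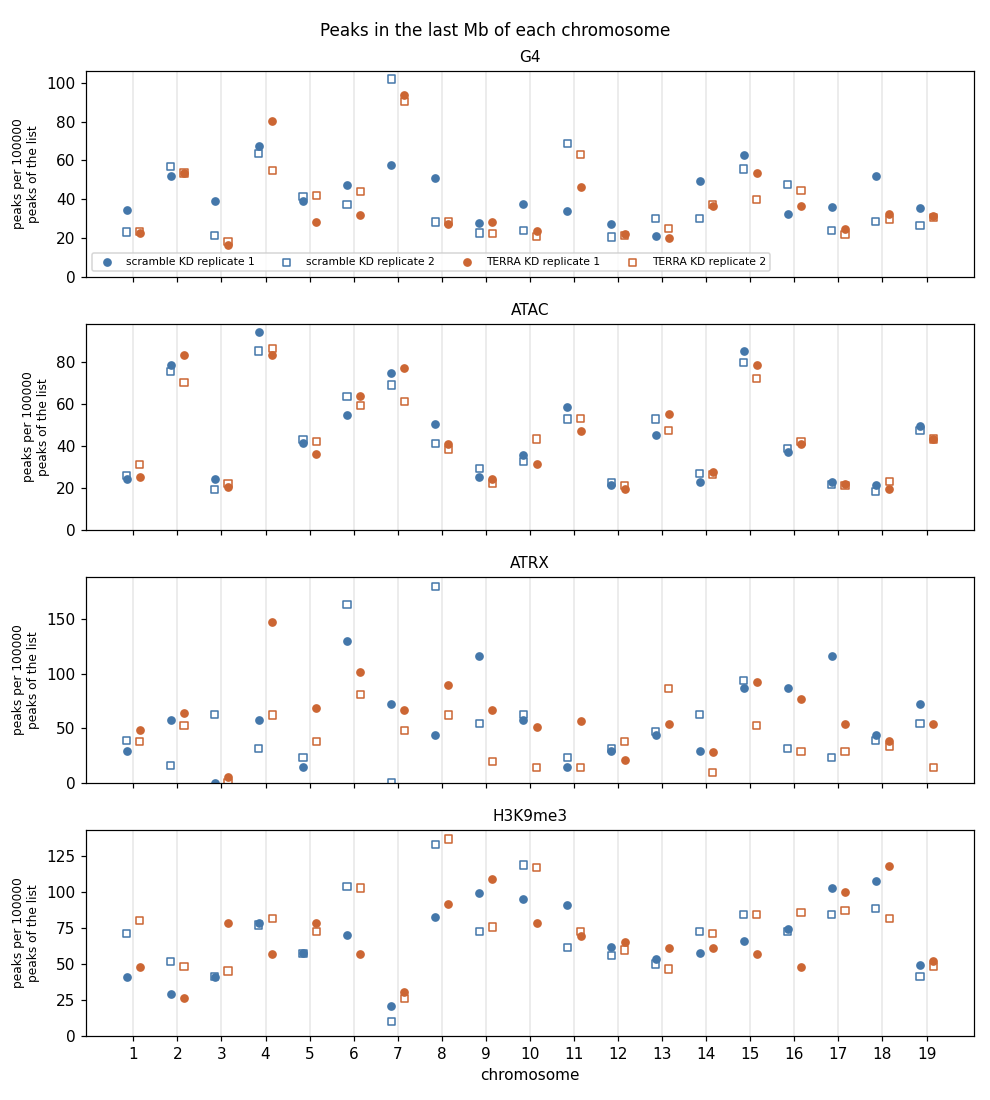
Members in the last Mb of each autosome, per 100000 autosomal peaks of the list (y axis), by chromosome (x axis) and assay, with 1 point for each of 4 lists. G4 peaks are most frequent at chromosome 7 in 3 of 4 lists, ATAC peaks stand high at chromosomes 2, 4, 7 and 15, and H3K9me3 peaks are sparse at chromosome 7 and most numerous at chromosome 8 in replicate 2.

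The chromosome 4 end held the most genes, 54, and is 47.6% GC. It had 90 and 239 in scramble KD against 134 and 119 in TERRA KD for G4, where each pair gives replicates 1 and 2 in that order here and below, and 71 and 79 in scramble KD against 69 and 86 in TERRA KD for ATAC. ATRX peaks numbered 4 and 4 in scramble KD against 58 and 13 in TERRA KD, which per 100000 peaks of the list was 58 and 31.3 in scramble KD against 148 and 62.2 in TERRA KD. It was thus 1 of 3 ends (with 5 and 13) whose ATRX share was higher in both TERRA KD lists than in both scramble KD lists, a pattern met in 20.4% of 2402 autosomal windows of 1 Mb. The nearest gene to the end was Vmn2r129, a vomeronasal receptor gene, 27 kb in, with an H3K9me3 peak at its TSS in 3 of 4 lists. From Samd11 at 103 kb the stretch was gene-dense: Agrn (agrin, 161 kb), Dvl1 (dishevelled, 511 kb), B3galt6 and Sdf4 (365 kb) had ATAC peaks at the TSS in all 4 lists. H3K9me3 covered 8.83% and 3.7% in scramble KD against 10.8% and 4.16% in TERRA KD of it.

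Chromosome 2 carried 36 genes in its last Mb, among them Rtel1 (694 kb), the helicase that unwinds telomere loops and G-quadruplexes, Polr3k (149 kb), an RNA polymerase III subunit, and the neuronal genes Stmn3 and Chrna4. Its G4 peaks numbered 69 and 213 in scramble KD against 89 and 116 in TERRA KD and its ATAC peaks 59 and 70 in scramble KD against 69 and 70 in TERRA KD. Rtel1 had an ATAC peak at the TSS in all 4 lists and no G4, ATRX or H3K9me3 peak there in any. H3K9me3 was low at this end, covering 3.54% and 1.85% in scramble KD against 3.15% and 2.33% in TERRA KD, and the last 100 kb held 5 of 7 and 16 of 36 of its peaks in scramble KD and 4 of 6 and 12 of 33 in TERRA KD. Gm14496, the coding gene nearest the end at 22 kb, had an H3K9me3 peak at its TSS in 1 scramble KD list alone.

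The chromosome 7 end was the most GC-rich (49.7%) and the least repeat-masked (21.9%). It held 77 and 383 in scramble KD against 156 and 196 in TERRA KD for G4, the most of any end in 3 of 4 lists, and in scramble KD replicate 2 G4 peaks covered 58.8% of it. Its H3K9me3 peaks were the fewest of any end in both scramble KD lists, 5 and 7 in scramble KD against 7 and 18 in TERRA KD. It was 1 of 3 ends (with 3 and 5) whose H3K9me3 share was higher in both TERRA KD lists, a pattern of 11.3% of autosomal windows, and no end had it lower, a pattern of 9.95%. This stretch carries Mrgprd (26.6 kb), a receptor gene of sensory neurons, the growth factor genes Fgf15, Fgf4 and Fgf3 (445 to 503 kb) and Ccnd1 (402 kb), which encodes cyclin D1. Fgf3, Fgf4 and Fgf15 had ATAC peaks at the TSS in all 4 lists, whereas Ccnd1 had one in 1 scramble KD list.

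Chromosomes 11 and 15 were also gene-rich, with 22 and 30 genes. On chromosome 11 no gene lay in the last 152 kb, where Ptchd3 was the first, and Metrnl, Foxk2 and Csnk1d (casein kinase 1 delta) followed. The G4 peaks there numbered 45 and 258 in scramble KD against 77 and 137 in TERRA KD, and H3K9me3 peaks 22 and 43 in scramble KD against 16 and 50 in TERRA KD. The chromosome 15 end began with the mucin-like genes Mucl2 (44.4 kb) and Mucl1 (188 kb), which had no ATAC peak at the TSS in any list, and ended its megabase with Hoxc4 to Hoxc11. It held Cbx5 (704 kb), which encodes the H3K9me3 reader HP1α, with an ATAC peak in all 4 lists and no H3K9me3 peak. G4 peaks numbered 84 and 209 in scramble KD against 89 and 86 in TERRA KD. Its G4 share was lower in both TERRA KD lists, as at chromosomes 3 and 10 and no other end (3 of 19, against 7.54% of windows), and none of the 19 had it higher (6.12% of windows). An H3K9me3 peak 361 bp from the last base of this end was listed in both scramble KD replicates and neither TERRA KD replicate, at −log10 p of 2.07 and 2.43.

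Receptor clusters made up the ends of chromosomes 10 and 9. The last Mb of chromosome 10 (37.8% GC) carries 4 Vmn2r genes from 97.6 kb and 31 olfactory receptor genes from 384 kb, and ATAC peaks numbered 27 and 30 in scramble KD against 26 and 43 in TERRA KD. None of the 31 olfactory receptor genes had an ATAC peak at the TSS except Olfr824, in 1 TERRA KD list. H3K9me3 covered 10.4% and 5.26% in scramble KD against 12.1% and 5.58% in TERRA KD of it, and its ATRX share, 58 and 62.6 in scramble KD against 51.2 and 14.4 in TERRA KD per 100000 peaks, was lower in both TERRA KD lists, as at chromosomes 6, 14, 18 and 19 (5 of 19 ends, against 19.6% of windows). The stretch of chromosome 9 has 153143 N bases inside it and carries the chemokine receptor genes Ccr2, Ccr3, Ccr1l1, Ccr1, Xcr1, Cxcr6 and Ccr9 between 393 and 728 kb, receptors of leukocyte migration. None of these 7 had an ATAC peak at its TSS, and no H3K9me3 peak was there either. Over all autosomal TSS, 32.1% had no ATAC peak in any list and 94.8% no H3K9me3 peak. Ppp2r3d, 18.2 kb from the end, had H3K9me3 peaks at the TSS in 1 scramble KD and 2 TERRA KD lists and ATAC peaks in 1 and 2.

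At chromosome 13 the gene nearest any autosome's end was Tcstv3, 4.78 kb from the last base, and Tcstv1 lay at 427 kb. These genes of the Tcstv family are known from the earliest embryo, and neither had a peak of any assay at its TSS in any list. No gene of this end had an ATAC peak at its TSS before Zfp131 at 531 kb. ATRX peaks numbered 3 and 6 in scramble KD against 21 and 18 in TERRA KD. The stretch contains 100000 N bases, and 15.8% of the 31-base words in its last 50 kb recur at other ends.

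Gene-poor ends lay on chromosomes 14, 12, 3 and 17, with 2, 3, 4 and 4 genes. Chromosome 14 had the longest tract and 60.6% of the 31-base words of its last 10 kb in common with other ends, and its only coding gene was Fgf14 (125 kb), with a G4 peak at the TSS in all 4 lists. On chromosome 12, Tmem196 (82.9 kb), Macc1 (586 kb) and the integrin gene Itgb8 (791 kb) were the genes present, and H3K9me3 covered 5.11% and 2.04% in scramble KD against 7.23% and 2.34% in TERRA KD. The chromosome 3 end, with Wls (100 kb, a carrier of Wnt ligands), Rpe65 and Depdc1a, had no ATRX peak in scramble KD replicate 1 or TERRA KD replicate 2, 8 in the other scramble KD list and 2 in the other TERRA KD list. Its G4 peaks numbered 52 and 80 in scramble KD against 27 and 39 in TERRA KD, and its H3K9me3 peaks 10 and 29 in scramble KD against 18 and 31 in TERRA KD. Near the chromosome 17 end, Gm20939 (22.4 kb) had an H3K9me3 peak at the TSS in 1 list of each group, and H3K9me3 covered 8.53% and 3.74% in scramble KD against 11.6% and 4.23% in TERRA KD.

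At the ends of chromosomes 8, 1, 16 and 19, 46.1%, 27.8%, 31.2% and 42.9% of the 31-base words in the last 50 kb recur at other ends. Chromosome 8's H3K9me3 peaks, 20 and 93 in scramble KD against 21 and 94 in TERRA KD, were the most of any end in both replicates 2. The predicted gene Gm32856 (37.6 kb) had H3K9me3 and ATAC peaks at its TSS in all 4 lists of each. Chromosome 19 held the other gene with H3K9me3 at the TSS in all 4 lists, Csf2ra (103 kb), which encodes a receptor subunit for GM-CSF, and it too had ATAC peaks there in all 4. On chromosome 16 the last 100 kb held 12 of 18 and 38 of 51 H3K9me3 peaks in scramble KD and 4 of 11 and 39 of 59 in TERRA KD, and 20 of the 30 ATRX peaks of TERRA KD replicate 1. Chromosome 1, with no gene in its last 195 kb before the complement receptor gene Cr2, had 10 and 50 in scramble KD against 11 and 55 in TERRA KD for H3K9me3. Its ATRX peaks, 2 and 5 in scramble KD against 19 and 8 in TERRA KD, came to 29 and 39.1 in scramble KD against 48.6 and 38.3 in TERRA KD per 100000 peaks of the list, and in these shares the groups overlapped.

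Chromosomes 5, 6 and 18 completed the set. The first coding gene of chromosome 5 was Rfc3 (83.5 kb), a subunit of the clamp loader of DNA replication, with ATAC peaks in all 4 lists, and its ATRX share was 14.5 and 23.5 in scramble KD against 69.1 and 38.3 in TERRA KD per 100000 peaks. Chromosome 6 had ATRX peaks numbering 9 and 21 in scramble KD against 40 and 17 in TERRA KD, the most of any end in scramble KD replicate 1, and carries Gm21814 at 20.5 kb and Bicd1, a dynein adaptor gene, at 178 kb. Chromosome 18 was the most repeat-masked (57.6%) and had H3K9me3 over 8.43% and 3.37% in scramble KD against 12.8% and 3.32% in TERRA KD of its length, with Gm45871 at 22.8 kb as its first gene. For ATAC, the share per end was higher in both TERRA KD lists at chromosome 16 alone (1 of 19 ends, against 15.7% of windows) and lower at chromosomes 9, 12, 15 and 19 (4 of 19, against 17% of windows).

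The strongest distal sites of ATRX and H3K9me3 were 1 cluster on chromosome 9. ATRX peaks at chr9:123923925-123926288, chr9:123927409-123934467 and chr9:123935288-123937566, 558 to 569 kb from the last base in intergenic sequence between Ccr1 and Xcr1, were listed in all 4 ATRX lists, and the best of them ranked 1 and 2 in the scramble KD lists and 3 and 16 in the TERRA KD lists. The highest −log10 p was 136 and 36.1 in scramble KD and 310, the largest value the list holds, and 62.5 in TERRA KD. H3K9me3 peaks over the same 13642 bases ranked 1 and 5 in scramble KD against 1 and 9 in TERRA KD. Their highest −log10 p was 310 and 153 in scramble KD against 310 and 310 in TERRA KD. Peaks of equal −log10 p were ranked in the order of the list, so ranks among peaks at 310 do not order them. Of this stretch 10745 to 11539 bases were under ATRX peaks and 10409 to 11883 under H3K9me3 peaks, depending on the list. G4 and ATAC peaks were there in all 4 lists too, with G4 ranked in the top 0.796% or better of each list and ATAC between the top 6.32% and 12.5%. All 16 lists thus had a peak in the cluster.

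The first of the 3 sites is made in part of a tandem repeat, and 200 bases of it (chr9:123924376-123924575, plus strand) are shown with each exact copy of its commonest 12-base word in capitals, a word met 20 times in the site.
Chromosome 9 repeat: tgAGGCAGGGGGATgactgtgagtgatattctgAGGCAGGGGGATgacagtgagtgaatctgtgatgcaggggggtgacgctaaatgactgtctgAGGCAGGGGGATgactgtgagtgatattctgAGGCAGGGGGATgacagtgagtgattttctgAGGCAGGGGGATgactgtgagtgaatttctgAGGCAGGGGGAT
The fourth site in all 4 ATRX lists, chr10:129735000-129735825, lay 859 kb from the end of chromosome 10 and 3503 bp from the TSS of Olfr806, and it holds an interstitial run of the telomeric hexamer on the other strand. It has 13 copies. ATRX was listed there at −log10 p of 3.16 and 9.9 in scramble KD against 28.7 and 7.19 in TERRA KD, with a fold enrichment over input of 9.87 and 10.2 against 22.7 and 10.2. The groups overlapped in both measures. Of the 743 distal ATRX sites, built by merging peaks of the 4 lists that overlapped by at least 1 bp, these 4 were 0.538%, and 0.242% of all autosomal ATRX sites were in all 4 lists.

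Sites with an ATRX peak in both TERRA KD lists and neither scramble KD list numbered 23, or 3.1% of distal ATRX sites against 2.22% over the autosomes. The reverse pattern had 0 distal sites, against 0.0953%. Since the TERRA KD lists are longer, a site is more often in both of them, and the 23 are described with that in view. The strongest, chr1:195319936-195322329, lay 49.6 kb from the end of chromosome 1 (−log10 p 23.6 and 6.5) under an H3K9me3 site of all 4 lists, and chr16:98037269-98039045, 68.7 kb from its end (13.8 and 4.05), did too. On chromosome 14 the site chr14:124779630-124780299 lay 21.9 kb from the end (4.75 and 4.55). Chromosome 1 alone held 5 of the 23, from 13.9 to 130 kb, and at chr1:195241438-195242153 the order of the replicates was the opposite, with 4.05 and 37.6. Of the 23, 15 were at least 80% repeat-masked (85.8% or more) and the other 8 at most 23.1%, where 38.1% of the distal sequence is masked. Of all bases under distal ATRX members, 54.4% and 46.5% were masked in TERRA KD replicates 1 and 2. H3K9me3 peaks overlapped 18 of the 23 sites in at least 1 list and 13 in all 4. By single list, 46.0% and 33.8% of all distal ATRX members of TERRA KD overlapped an H3K9me3 peak of the same replicate. The share by the rule used for the 23 is not given here for other ATRX sites.

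Only 1 of these 23 ATRX sites lay within 1 kb of a TSS, and it lay at 2 miRNA genes. The site chr4:156053767-156054675 (−log10 p 2.21 and 4.05, fold enrichment 9.5 and 7.81) spans Mir429 and lies within 1 kb of Mir200a, in an intron of Gm13648, 303 kb from the end of chromosome 4. They were 2 of 313 distal TSS, or 0.639%, where 0.721% of all 24963 autosomal TSS had this pattern, and no distal TSS had the reverse (0.00801% of all). The miR-200 family is known for repressing the ZEB factors and keeping cells epithelial. The mature sequences of the cluster are printed, from RefSeq on GRCm38.p6, with the seed (bases 2 to 8) in capitals, since they fall into groups by seed: miR-200b and miR-429 share one and miR-200a has another.
miR-200b-3p: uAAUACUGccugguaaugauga
miR-200a-3p: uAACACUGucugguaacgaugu
miR-429-3p: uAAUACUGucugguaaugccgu
None of the 3 genes had an ATAC or H3K9me3 peak within 1 kb of the TSS in any list. The TSS of a miRNA here is the start of its annotated gene, so its promoter may lie elsewhere. Gm13648, whose intron holds the site, has its TSS 298 kb from the end. It had ATAC peaks there in all 4 lists and no ATRX or H3K9me3 peak in any.

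ATRX peaks overlapped H3K9me3 peaks of the same group and replicate more often in the distal megabase than elsewhere. The share was 31.6% and 24.8% of ATRX members in scramble KD against 46.0% and 33.8% in TERRA KD, against 20.5%, 15.4%, 28.8% and 15.9% of the other autosomal ATRX peaks. Within 100 kb of the end it was 62.5% and 46.7% in scramble KD (10 of 16 and 14 of 30 peaks) and 66.2% and 61.5% in TERRA KD (88 of 133 and 16 of 26). Every list was higher in the stretch, and higher still near the end. H3K9me3 itself covered more of the distal bases, and its part in this overlap was not tested. Overlap of ATRX with ATAC was also higher in the stretch, at 13.2% and 6.02% in scramble KD against 21.8% and 16.6% in TERRA KD. Elsewhere it was 7.42%, 2.84%, 15.3% and 15.6%. Within 100 kb of the end it was 6.25%, 6.67%, 20.3% and 15.4%, so not higher still in each list. Overlap of ATRX with G4 had no such order, at 10.5% and 12.8% in scramble KD against 21.6% and 19.9% in TERRA KD against 9.23%, 19.6%, 19.1% and 27.2% elsewhere.

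H3K9me3 sites recurred across lists more often than over the autosomes. Of 828 merged distal sites 157 were in all 4 lists, 19% against 12.4% over the autosomes. After the chromosome 9 cluster, the strongest were chr10:129923234-129932566 near Olfr816 (−log10 p 62.2 and 26.7 in scramble KD, 61.1 and 27.2 in TERRA KD), chr16:98030352-98042535 (41.0 and 8.82, 44.1 and 21.2) and chr19:61245584-61256684 (52.0 and 16.6, 43.9 and 14.6). In each the replicates differed more than the groups. Sites in both TERRA KD lists and neither scramble KD list numbered 14, 1.69% of distal sites and 1.69% of autosomal sites, and the reverse 5, 0.604% against 1.02%. The first of the 14 was chr5:151499508-151503449, 231 kb from the end (6.04 and 3.24).

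G4 sites were the most numerous. Of 3509 merged sites 297 (8.46%) were in all 4 lists, against 9.42% over the autosomes, and 1818 (51.8%) were in 1 list alone. Sites in both scramble KD lists and neither TERRA KD list numbered 78, 2.22% against 1.72% over the autosomes, and those with the reverse 25, 0.712% against 0.716%. Members holding a G4 motif were 38.2% and 34.5% in scramble KD against 42.0% and 35.9% in TERRA KD, and of the 4666 distal motifs 17.9% and 36.5% against 20.7% and 20.4% lay under a peak, where peaks covered 3.76%, 16.1%, 4.82% and 7.56% of the bases. Motifs were thus under G4 peaks more often than bases at large in every G4 list. The same held for ATAC, whose peaks held 8.77% and 9.69% of motifs in scramble KD against 9.69% and 9.97% in TERRA KD. Those peaks covered 2.12%, 2.7%, 2.34% and 2.82% of the bases. It held in no H3K9me3 list, and the ATRX lists went both ways.

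The strongest G4 site in all 4 lists, chr15:103141643-103143395, lay in an intron of D930007P13Rik, 800 kb from the end of chromosome 15, at −log10 p of 32.2 and 65.3 in scramble KD against 30.2 and 20.7 in TERRA KD. Next were chr16:97659702-97661158 (31.8 and 61.0, 23.3 and 17.2), which holds no such motif, and chr9:123923301-123926236, which overlaps the chromosome 9 cluster. The motif-bearing 120 bases of 3 of these sites are printed with runs of 3 or more G in capitals, on the minus strand, where the motif shown lies. They are chr15 (chr15:103141899-103142018), the chromosome 9 G4 site (chr9:123923624-123923743) and an intergenic site near Rnf223 on chromosome 4 (chr4:156133436-156133555). The chromosome 9 bases shown lie just outside the cluster, before its first ATRX site.
Chromosome 15: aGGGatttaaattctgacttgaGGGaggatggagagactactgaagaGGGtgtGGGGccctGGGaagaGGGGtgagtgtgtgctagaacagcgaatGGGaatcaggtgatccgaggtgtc
Chromosome 9: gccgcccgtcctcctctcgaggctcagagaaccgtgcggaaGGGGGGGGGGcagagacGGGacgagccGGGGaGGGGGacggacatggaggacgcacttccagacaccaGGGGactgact
Chromosome 4: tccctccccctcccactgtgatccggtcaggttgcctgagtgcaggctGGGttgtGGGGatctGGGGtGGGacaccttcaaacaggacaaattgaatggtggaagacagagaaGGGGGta
A match shows the letters only, and its folding was not measured base by base. The chromosome 4 site, chr4:156129560-156139168, had −log10 p of 14.2 and 94.9 in scramble KD against 21.2 and 12.2 in TERRA KD, so scramble KD replicate 2, the deepest library of the assay, stood apart from the other 3.

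Genes were counted by their most upstream curated RefSeq TSS. The stretch holds 313 of 24963 autosomal TSS (1.25%, 16.8 per Mb against 10.4), of which 261 are protein-coding. A peak within 1 kb was found for ATAC at 58.1% and 62.6% of them in scramble KD against 62.6% and 63.9% in TERRA KD, where the autosomal shares were 60.1%, 64.2%, 63.0% and 64.9%. The difference was 2.88 percentage points (exact permutation p = 0.667) and the groups met at 62.6%. G4 peaks were at 36.4% and 61.0% against 42.5% and 15.7% (difference -19.6 points, exact permutation p = 0.667), each below its autosomal share of 42.1%, 65.2%, 49.5% and 22.4%. ATRX peaks were at 0.958% and 0.639% of TSS in scramble KD (3 and 2 genes) and 12.8% and 3.19% in TERRA KD (40 and 10 genes), a difference of 7.19 points with no overlap (exact permutation p = 0.333), and 2.4 points without TERRA KD replicate 1. With only peaks of −log10 p of at least 5, the ATRX difference was 0.16 points (exact permutation p = 1). The autosomal ATRX shares were 1.07% and 0.581% against 8.33% and 4.95%, so the distal TSS lay above the autosomes in TERRA KD replicate 1 and below them in replicate 2. H3K9me3 peaks were at 3.51% and 5.11% against 4.47% and 1.6% (difference -1.28 points, exact permutation p = 0.667). Without replicate 2 of both groups the difference was 6.07 points for G4 and 0.958 for H3K9me3, and with only peaks of −log10 p of at least 5 it was 0.479 for H3K9me3.

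**Figure D4:**
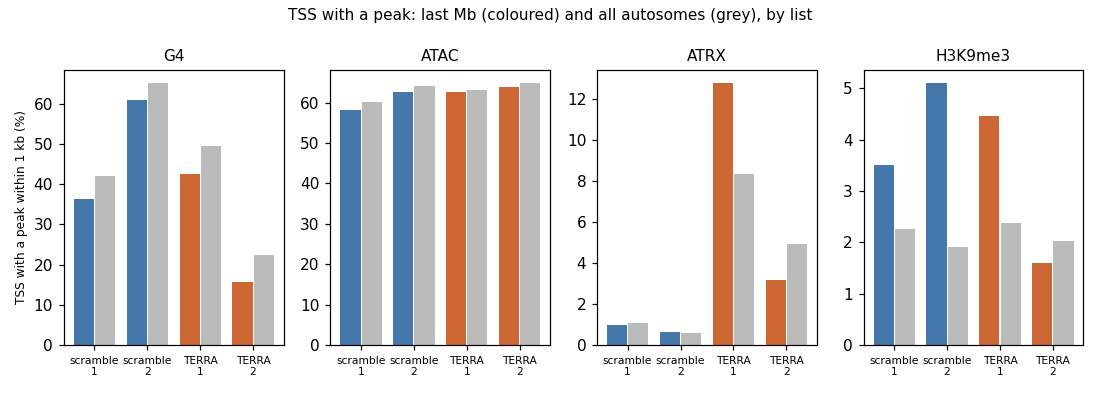
Share of TSS with a peak within 1 kb (y axis, %), for the 313 distal TSS (coloured bars, blue for scramble KD and orange for TERRA KD) and all 24963 autosomal TSS (grey bars), by list (x axis, group and replicate). Distal and autosomal bars run close for ATAC, ATRX bars reach 12.8% and 3.19% in TERRA KD, and distal H3K9me3 bars stand above the grey in 3 of 4 lists.

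TSS near the tract had H3K9me3 peaks more often than those farther in, and ATAC peaks about as often. Of the 24 TSS in the last 100 kb, 4 and 6 in scramble KD against 6 and 2 in TERRA KD had an H3K9me3 peak (16.7%, 25%, 25% and 8.33%), against 2.42%, 3.46%, 2.77% and 1.04% of the 289 beyond. ATAC peaks were there at 15, 15, 16 and 16 of the 24 (62.5%, 62.5%, 66.7% and 66.7%), against 57.8%, 62.6%, 62.3% and 63.7% of the 289 beyond. Most TSS next to the end were thus in accessible sites, as were most of the others. ATRX peaks were at 10 of the 24 in TERRA KD replicate 1, 41.7% against 10.4% of those beyond. They were at 1 and 0 of the 24 in scramble KD, against 0.692% beyond in each list. In TERRA KD replicate 2 they were at 0, against 3.46% beyond. Among genes with both marks, A630089N07Rik (25.3 kb, chromosome 16) had ATAC in all 4 lists and H3K9me3 in 1 of each group, and 4930526I15Rik (71.9 kb, chromosome 9) had ATAC in all 4 and H3K9me3 in 1 scramble KD list.

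By G4, 23 distal TSS had a peak in both scramble KD lists and neither TERRA KD list, 7.35% against 4.86% of all TSS, and none had the reverse, against 0.228%. Named from the end inward they were Ptchd3 (152 kb), Bicd1 (178 kb, a dynein adaptor), Resf1 (277 kb, a factor of retroelement silencing), Rgs19 (319 kb, a regulator of G-protein signaling), Samd10, Ube2j2 (414 kb, a ubiquitin-conjugating enzyme), Uckl1, Cd34 (433 kb, a surface protein of progenitor cells), Fn3k and Nim1k among the first 10. Of these 10, all but Samd10 had ATAC peaks at the TSS in all 4 lists, and Samd10 had 1 in scramble KD and 2 in TERRA KD. The TERRA KD replicate 2 list had a G4 peak at 22.4% of all autosomal TSS, the lowest of the 4 lists, and the part of that list in this count was not tested. G4 was at the TSS in all 4 lists for 12 distal genes (3.83%, against 9.35% of all), and 6 of these had ATAC in all 4 lists too: Metrnl, C1qtnf12, Eef1a2 (a translation elongation factor), Cttn (cortactin), Chrna4 (a nicotinic receptor subunit) and Csnk1d.

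For ATAC, Ankrd65 (567 kb, chromosome 4) and Mx2 (572 kb, chromosome 16, an interferon-induced GTPase) had a peak in both TERRA KD lists and neither scramble KD list, 0.639% against 0.605% of all TSS. Ccdc7a (236 kb, chromosome 8) had the reverse, 0.319% against 0.244%. Over merged ATAC sites the same patterns numbered 27 each of 1054 distal sites, 2.56% where 3.24% of autosomal sites had the first and 1.8% the second, and 485 (46%) were in all 4 lists against 41.1%. Cybc1 (753 kb, chromosome 11, a chaperone of the phagocyte oxidase) was the one gene with H3K9me3 in both TERRA KD lists only, 1 of 313 against 0.124% of all TSS, and none had the reverse (0.0561%). These counts of 1 or 2 genes lie near their backgrounds.

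Genes were also grouped by symbol. Over all autosomal TSS, 57.7% had ATAC in all 4 lists and 32.1% in none. G4 was in no list at 24.1% of them and H3K9me3 in no list at 94.8%. Whether these small groups differ from those shares was not tested. Among 7 Hoxc genes and 4 FGF ligand genes, ATAC peaks were at the TSS in all 4 lists for 6 (all but Hoxc6, with none) and 3 (all but Fgf14, with 1 scramble KD and 2 TERRA KD lists), and none had H3K9me3. All 7 Hoxc genes had G4 in a scramble KD list and 6 in a TERRA KD list, and Hoxc9 and Hoxc10 had an ATRX peak in 1 TERRA KD list each. Of 7 zinc finger genes, which encode DNA-binding proteins, 6 had ATAC in all 4 lists. The 7 chemokine receptor genes, 31 olfactory receptor genes and 6 vomeronasal receptor genes, which belong to leukocytes and sensory neurons, had ATAC in no list apart from Olfr824. G4 was at 3 of the 7 chemokine and 6 of the 31 olfactory receptor TSS in a scramble KD list. H3K9me3 was at no chemokine receptor TSS. It was at 0 and 3 olfactory receptor TSS in scramble KD against 0 and 0 in TERRA KD, and at 1 and 3 vomeronasal receptor TSS against 1 and 0, so the groups differed in replicate 2 alone. Over all autosomal TSS the H3K9me3 share was 2.26% and 1.92% in scramble KD against 2.37% and 2.03% in TERRA KD. Rtel1, Noc2l and Cbx5 had ATAC in all 4 lists, and Noc2l had an ATRX peak in 1 TERRA KD list.

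The cell type was checked on the same ATAC lists. Of 8 embryonic stem cell markers 6 had a peak at the TSS in all 4 lists and none was without one, and of 8 fibroblast markers, which would mark feeder cells, 4 (Col1a1, Col1a2, Twist2 and Thy1) had a peak in all 4 lists and 4 in none. Open chromatin at a promoter is not expression, and the share of feeder cells in these libraries was not tested.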

How the data were processed

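Peak lists of ATRX, H3K9me3 and G4 ChIP-seq and of ATAC-seq were analysed, 16 lists from 22 samples, of which 6 are inputs with no list. The authors trimmed reads (Trim Galore 0.5.0), aligned them to mm10 (Bowtie2 2.3.4.1) and removed duplicates (SAMtools 1.9), and peaks were called separately in each sample with MACS at p 0.01. ChIP peaks were called against an input (MACS 1.4.2 or 1.4.3, the 2 G4 replicates of a group sharing one, and ATRX and H3K9me3 of a group and replicate sharing one) and ATAC peaks without (MACS 2.2.7.1). Bowtie2 ran with default settings, which give a read with several equal matches 1 placement. The deposited lists give counts of tags in a peak, a score of 10 times the −log10 of the p-value, a ratio (fold enrichment over input or background) and, for ATAC, a pileup signal. In the ATAC lists deposited by the authors, the −log10 p is given directly. The deposited FDR columns were not used.

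From these, peaks were assigned to the distal 1 Mb by position on GRCm38, with the part past the last base left out. Genes are curated RefSeq genes of GRCm38.p6 at their most upstream TSS. Sites merge peaks of the 4 lists of an assay that share at least 1 bp. Shares, covered bases and TSS percentages were compared with two-sided exact permutation tests over 4 samples (smallest p 0.333), and densities with sign-flip tests over 4 lists (smallest p 0.125). The study calls the ATRX and G4 replicates biological. For H3K9me3 and ATAC the sources used here do not say what the replicates are, so p-values measure only the spread between these samples, which may be technical. Methods were tested on simulated data. Python 3.11.15, numpy 2.4.6, pandas 2.3.3, scipy 1.17.1 and matplotlib 3.10.9 were used.

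The stretch, the gene groups and the tests were chosen with earlier results of these data known. Genes were named when nearest an end, when a peak lay within 1 kb of the TSS in both lists of one group and neither of the other (at most 10 each way), when H3K9me3, or G4 and ATAC together, were there in all 4 lists, or as members of the gene groups. Some genes and sequences are not reported here. Other genes described at single ends were chosen after their values were seen.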

Additional observations from a re-analysis of the deposited data

How the results depend on the processing

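Of 122 alternative values, 111 kept their direction and 11 turned it, and none could pass 0.05 in designs of this size. With only peaks of −log10 p of at least 5, the G4 share difference was 0.04 and the G4 covered difference 0.03 on the log2 scale, the ATRX covered difference was -1.73, and the TSS difference was 0.479 percentage points for H3K9me3 and 0.16 for ATRX. Over the last 2 Mb the log2 G4 density ratio was 0.08, and over the last 500 kb the H3K9me3 share difference was -0.01. When each list was limited to as many top-ranked peaks as the shortest list of its assay holds, the ATRX share difference was 0.07. Without TERRA KD replicate 2, chosen after seeing the data along with leaving out TERRA KD replicate 1 and the ATAC peaks past the last base, the ATRX share difference was 0.15 and the covered difference 0.04, and without TERRA KD replicate 1 they were -0.57 and -0.68. The cause of these turns was not tested. Leaving out each replicate in turn, the share difference ran from -0.18 to -0.08 for G4, -0.04 to -0.03 for ATAC, -0.52 to 0.10 for ATRX and 0.00 to 0.08 for H3K9me3, and the TSS difference from -45.4 to 6.07 points for G4, 1.28 to 4.47 for ATAC, 2.56 to 11.8 for ATRX and -3.51 to 0.958 for H3K9me3. The mean log2 density ratio of the stretch over the rest stayed between 0.29 and 1.34 for H3K9me3 and between 0.16 and 1.59 for ATRX over their alternatives. With the replicate number as a block the differences were the same, for the share -0.13 (G4), -0.04 (ATAC), -0.21 (ATRX) and 0.04 (H3K9me3), for covered bases -0.15, -0.05, -0.32 and 0.09, and for TSS -19.6, 2.88, 7.19 and -1.28 points, with p of 0.5 or 1 in the exact test over 2 pairs, and no call changed. Samples with the same number deviated together over 190 stretches with r of 0.26 (G4), 0.1 (ATAC), 0.07 (ATRX) and 0.32 (H3K9me3), and with 2 pairs the numbers were not taken as pairing the samples. The scramble KD ATRX lists hold 76 and 133 members, and single values on them rest on few peaks. With only peaks of −log10 p of at least 5 they hold 3 and 5.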
